A study of Mus musculus with 12 samples.

Results

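Mitosis genes encode the cyclins, kinases, spindle, kinetochore and cytokinesis proteins that a cell makes in G2 and M phase. A list of 39 of them was followed across the series, each read from its brightest probe set, by the mean of the 12 arrays. Of the 39 genes, 38 are named on the arrays and 38 were above the filter on low values, among 15237 genes tested. Ccnb1 was not analysed here. The arrays measured RNA from C57BL6 mice that either lacked Sgpp2, the gene of sphingosine-1-phosphate phosphatase 2 (KO), or were wild type (WT). Each group held 3 arrays: KO on a high-fat diet, WT on a high-fat diet, KO on a normal diet and WT on a normal diet. The labels give no age or length of feeding, say nothing of how the Sgpp2 allele was made and name no tissue; the title of the series names pancreatic islets and β-cell proliferation. Nor do they tie each array to an animal of its own, so that a p-value here measures no more than the spread among these samples, which could be technical.

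The β-cell genes Ins2 (insulin) and Pdx1, an islet transcription factor, had mean log2 values of 14.57 and 12.30, and the acinar enzyme gene Cpa1 had 13.97. Sgpp2 itself had log2 values of 11.12, 11.11 and 11.02 on KO high-fat arrays and 11.48, 11.46 and 11.57 on WT high-fat arrays, and 11.03, 11.17 and 10.99 on KO normal arrays and 11.55, 11.51 and 11.63 on WT normal arrays. The KO arrays were lower than every WT array, with a signal still present in KO; where this probe set lies relative to the deleted stretch was not given. Limma's adjusted p for Sgpp2 was 0.0824 on the high-fat diet (log2 difference −0.42, SE 0.07) and 0.0263 on the normal diet (−0.50, SE 0.07).

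Cells that enter G2 switch on most of these genes together. In resting cells the DREAM complex holds their promoters silent through a short element, the cell cycle homology region (CHR), and in G2 B-MYB and FOXM1 act through the same element, often beside CCAAT boxes bound by NF-Y. In adult islets few β-cells divide, and transcripts of this programme are used as a readout of dividing cells of any type. In tissue RNA, fewer cells of a type and less RNA per cell cannot be told apart.

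A search of the RefSeq promoters (GRCm38.p6), from 250 bases before to 50 after the annotated start, found both elements in most of these genes. A promoter was given for 34 of the 39 genes; Aurkb, Ccna2, Foxm1, Kif20a and Tpx2 had none. The CHR letters TTTGAA or TTCGAA stood on either strand in 26 of the 34 promoters (76.5%), against 21.7% of 27025 promoters and 16.4% of the promoters of 12181 genes tested on the arrays. CCAAT stood on either strand in 27 (79.4%), against 41.1% of all promoters and 42.0% of those of tested genes. Both elements stood in 23 promoters (67.6%), against 8.61% of all promoters and 6.56% of those of tested genes. In the 250 bases before the start alone, the CHR letters were in 13 of 34 promoters (38.2%) and in 19.6% of all promoters, so that in these genes many of the matches lie after the start.

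The stretches printed here, from 120 bases before to 30 after the start, are from 6 genes with high mean levels whose promoters hold the CHR letters, and show where those letters stand. Capitals mark TTTGAA or TTCGAA and CCAAT, read on either strand, so that ATTGG is CCAAT on the other strand. They come from Prc1 (chr7:80294331-80294480, plus strand), Mki67 (chr7:135716350-135716499, minus strand), Cdca8 (chr4:124936888-124937037, minus strand), Ncapg (chr5:45669805-45669954, plus strand), Racgap1 (chr15:99651627-99651776, minus strand) and Cdk1 (chr10:69352883-69353032, minus strand).
Prc1: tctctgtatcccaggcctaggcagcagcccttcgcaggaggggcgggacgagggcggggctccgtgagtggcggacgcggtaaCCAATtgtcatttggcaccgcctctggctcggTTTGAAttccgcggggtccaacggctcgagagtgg
Mki67: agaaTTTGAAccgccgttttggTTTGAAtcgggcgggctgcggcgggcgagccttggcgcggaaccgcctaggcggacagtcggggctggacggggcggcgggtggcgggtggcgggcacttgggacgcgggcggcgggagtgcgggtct
Cdca8: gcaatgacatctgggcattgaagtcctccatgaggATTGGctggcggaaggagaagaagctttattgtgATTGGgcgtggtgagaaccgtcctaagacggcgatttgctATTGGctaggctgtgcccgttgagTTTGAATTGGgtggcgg
Ncapg: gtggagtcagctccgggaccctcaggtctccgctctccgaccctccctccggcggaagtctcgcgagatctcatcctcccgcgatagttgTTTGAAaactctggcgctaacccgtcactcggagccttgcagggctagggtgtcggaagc
Racgap1: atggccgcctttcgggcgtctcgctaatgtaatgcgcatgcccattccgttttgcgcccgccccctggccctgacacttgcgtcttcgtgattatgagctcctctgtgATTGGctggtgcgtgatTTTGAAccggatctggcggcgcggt
Cdk1: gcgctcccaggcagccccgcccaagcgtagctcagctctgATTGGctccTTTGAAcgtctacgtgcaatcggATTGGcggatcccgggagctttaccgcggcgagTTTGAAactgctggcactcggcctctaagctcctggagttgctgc
In Prc1 the CHR letters began 5 bases before the start, in Racgap1 they lay just after it, and Mki67 and Cdk1 had 2 copies each. In Cdca8 the TTTGAA shared its last base with an ATTGG.

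The members differed widely in level but moved over the arrays in a similar order. Mean log2 values ran from 5.19 for Kif4, a chromosome-bound kinesin, to 11.86 for Rrm2, the ribonucleotide reductase subunit that supplies deoxynucleotides. The SD over the 12 arrays ran from 0.22 for Aurka, the spindle pole kinase, to 0.79 for Tpx2, which activates that kinase and nucleates microtubules. KO high-fat array 3 had the highest value of the 12 arrays for 35 of the 38 members, against 10.2% of all genes tested. The exceptions were Aurka, Racgap1 and Espl1, which were highest on WT normal array 1. KO normal array 1 was the lowest for 21 members. The share of all genes that were lowest on that array was not counted.

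**Figure D1:**
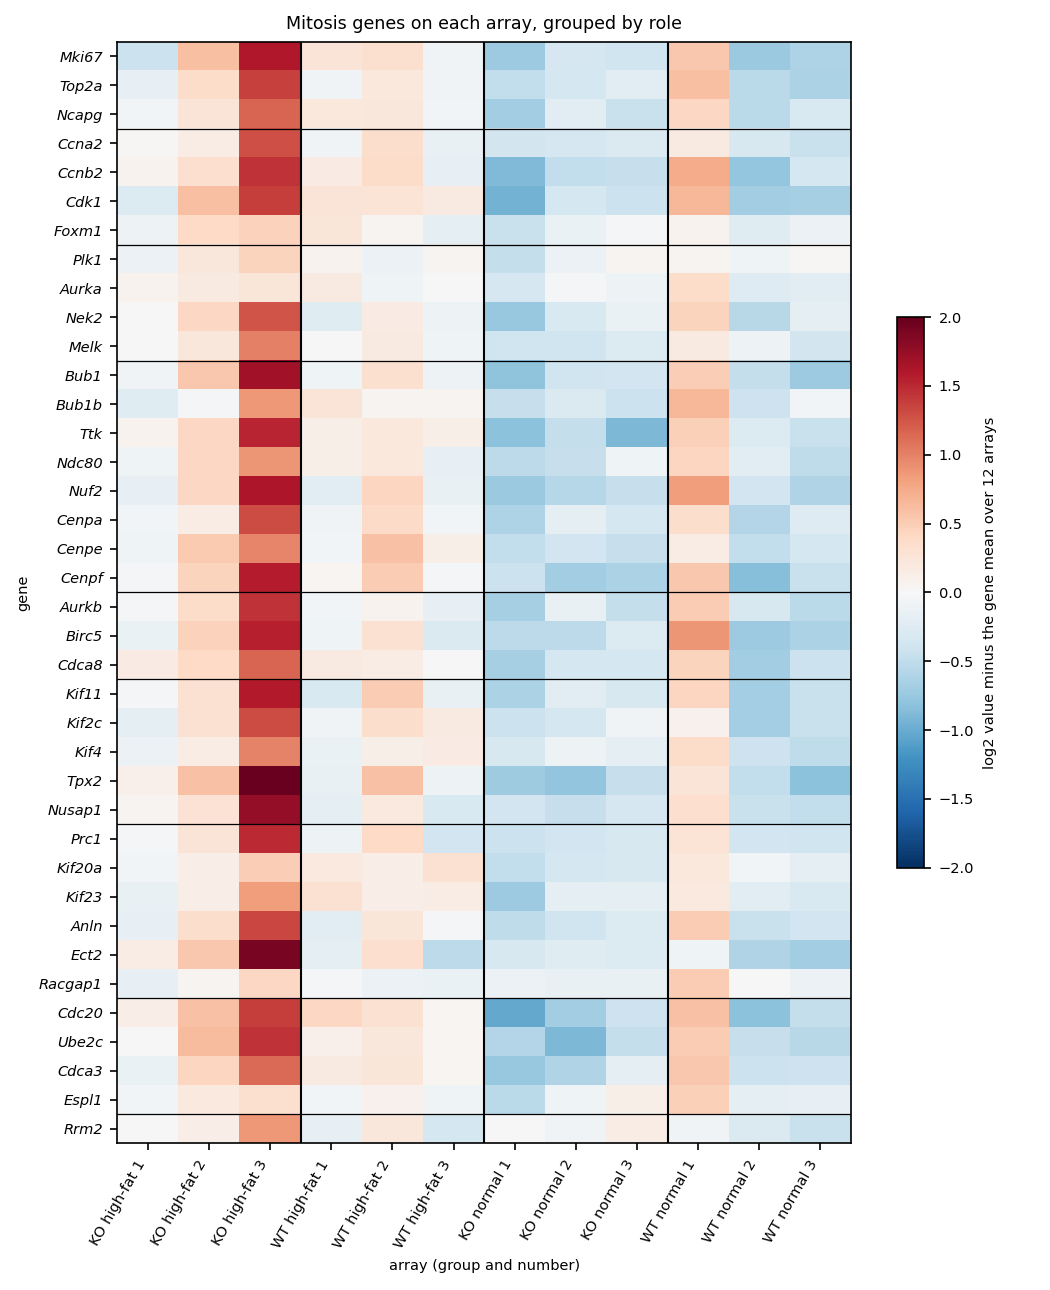
Each row is a mitosis gene, grouped by role, and each column an array; colour gives the log2 RMA value minus the gene's mean over the 12 arrays. KO high-fat array 3 is the darkest red column, WT normal array 1 is red beside both other WT normal arrays in blue, and the KO normal arrays are mostly blue.

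The level of the 38 members on an array, taken as the mean deviation from each gene's own mean over the 12 arrays, was −0.06, 0.34 and 1.19 on KO high-fat arrays 1, 2 and 3. It was 0.02, 0.24 and −0.06 on WT high-fat arrays, −0.56, −0.35 and −0.30 on KO normal arrays and 0.40, −0.44 and −0.42 on WT normal arrays. KO high-fat array 3 stood above both other arrays of its group for 38 of 38 members, by a median of 1.16 on the log2 scale (2.24-fold). By that measure 24 members exceeded 1, against 0.623% of all genes tested. WT normal array 1 also stood above both other arrays of its group for 38 of 38 members, by a median of 0.84 (1.79-fold), and 11 members exceeded 1, against 0.223% of all genes. The labels name no difference between these arrays and their group mates beyond the number.

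Markers of the cell types that islet tissue can hold were mostly below their means on KO high-fat array 3. The median over all genes tested was also lowest on that array, 9.21 against 9.23 to 9.40 on the others. Small negative values of a list there are thus not particular to cell types. Of 13 cell type lists, 11 had a mean deviation below 0 there, among them −0.19 for 9 β-cell genes, −0.32 for 5 ductal genes, −0.25 for 8 B cell genes, −0.07 for 10 T and NK cell genes and −0.39 for 11 myeloid genes. The 3 erythroid genes had 0.20 and the 4 fat cell genes 0.01. The B cell gene Cd79a, part of the antigen receptor, had log2 values of 8.45, 7.86 and 6.96 on KO high-fat arrays and 8.07, 7.66 and 8.37 on WT high-fat arrays. The other B cell genes were divided on KO high-fat array 3. Cd79b, Cr2 and Ighm were below their means over the 12 arrays. Ms4a1, Blk, Pax5 and Cd22 were just above theirs, with 5.10, 4.35, 4.38 and 5.72 against means of 5.07, 4.34, 4.34 and 5.69. The log2 of the summed level of the 10 acinar genes lay between 17.12 and 17.18 on KO high-fat arrays and 16.91 and 17.20 on WT high-fat arrays, and between 17.23 and 17.42 on KO normal arrays and 17.01 and 17.21 on WT normal arrays. Between the diets in KO, 10 of 10 acinar genes had lower means on the high-fat diet (51.9% of all genes). Of them, 8 did not overlap (6.71% of all genes), and limma called 0. The part of these cells in the results was not tested.

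On the normal diet, the means of most mitosis genes were lower in KO than in WT, and that order rested on 1 WT array. The KO mean was lower for 35 of 38 members, against 59.8% of all genes, with a median log2 difference of −0.26 against −0.05 over all genes tested. Limma called 0 members, against 128 of 15237 genes (0.84%); 1 member, Kif20a, had an unadjusted p under 0.05 (lower, 13.3% of all genes). The smallest adjusted p of a member was 0.161, for Kif20a, a kinesin of the cytokinetic midzone. KO and WT arrays did not overlap for Kif20a and Ttk, both lower in KO (2 of 38 members, against 22.2% of all genes).

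Kif20a had log2 values of 7.65, 7.79 and 7.82 on KO normal arrays and 8.35, 8.08 and 7.95 on WT normal arrays, a difference of −0.38 (SE 0.14). Ttk, a kinase of the spindle checkpoint, had 5.74, 6.08 and 5.66 on KO normal arrays and 7.04, 6.29 and 6.12 on WT normal arrays, a difference of −0.65 (SE 0.33). In both genes WT normal array 1 was the highest array, and both other WT arrays lay between it and the KO arrays. Nuf2, a kinetochore subunit that holds microtubules, had 5.67, 5.85 and 5.96 on KO arrays and 7.25, 6.04 and 5.81 on WT arrays, and Ccnb2, a cyclin partner of CDK1, had 6.52, 6.92 and 6.94 on KO arrays and 8.15, 6.64 and 7.05 on WT arrays. In both genes the groups overlapped, since 1 of the WT arrays lay within the range of the KO arrays, and WT normal array 1 stood over 1 log2 unit above every other array of these groups. The members with higher KO means were Rrm2, Ect2 and Kif2c, with log2 differences of 0.29, 0.18 and 0.06. Rrm2 had 11.85, 11.78 and 12.01 on KO arrays and 11.79, 11.57 and 11.41 on WT arrays. Ect2 had 8.28, 8.36 and 8.32 on KO arrays and 8.51, 8.00 and 7.90 on WT arrays. Kif2c had 5.80, 5.88 and 6.16 on KO arrays and 6.31, 5.55 and 5.79 on WT arrays. In each of the 3 genes WT normal array 1 was the highest of the WT arrays, and the groups overlapped. Leaving out WT normal array 1 gave a median over the members of 0.006, with 21 of 38 higher in KO; leaving out WT normal array 2 or 3 gave −0.39. With 1 array of either group left out, between 2 and 6 members did not overlap and were lower in KO, against 24.9% to 31% of all genes. Leaving out WT normal array 1 gave 2 such members and 6 that did not overlap and were higher in KO (14.7% of all genes). Centring each array on its median moved the all-gene median by 0.11 on the log2 scale and the members' median to −0.15, and Foxm1 and Kif4 then had higher means in KO, as did Aurka after cyclic loess.

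On the high-fat diet the means of 37 of the 38 members were higher in KO than in WT (43.3% of all genes), with a median log2 difference of 0.44 against −0.03 over all genes. Limma called 0 members, against 4 genes in all (0.0263%). At an unadjusted p under 0.05, 1 member was higher in KO (6.27% of all genes). KO and WT arrays overlapped for 38 of 38 members (7.31% of all genes did not overlap and were higher in KO). The smallest adjusted p of a member was 0.31, for Ect2, the exchange factor that starts the cleavage furrow.

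Ect2 had log2 values of 8.75, 9.13 and 10.49 on KO high-fat arrays and 8.40, 8.94 and 8.08 on WT high-fat arrays, a difference of 0.98 (SE 0.37). Nusap1, which bundles spindle microtubules, had 8.39, 8.62 and 10.08 on KO arrays and 8.13, 8.53 and 8.02 on WT arrays. Tpx2 had 8.77, 9.25 and 10.64 on KO arrays and 8.52, 9.26 and 8.57 on WT arrays. In these 3 genes KO high-fat array 3 lay over 1 log2 unit above the next array of any group, and KO array 1 lay below the highest WT array. Kif20a, the only member with a lower mean in KO, had 8.08, 8.27 and 8.63 on KO arrays and 8.34, 8.27 and 8.45 on WT arrays, and the sign turned under median centring and cyclic loess. Leaving out KO high-fat array 3 gave a median over the members of 0.09, with 28 higher in KO. Leaving out KO high-fat array 1 gave 0.71, and 22 members did not overlap, all higher in KO (11.6% of all genes). Leaving out WT high-fat array 2 gave 13 such members (15.1% of all genes).

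**Figure D2:**
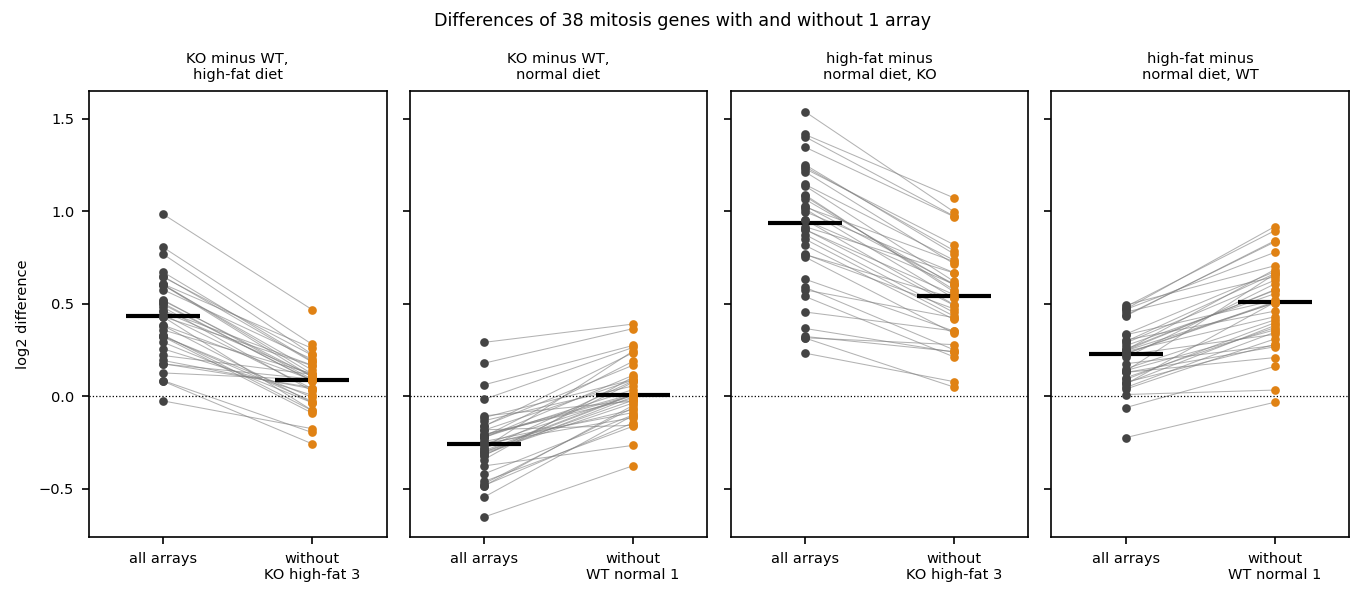
Each point is the log2 difference of 1 of the 38 members with all arrays and, joined by a line, without 1 array; black bars are medians. With KO high-fat array 3 left out, the median of KO minus WT on the high-fat diet is 0.09 in place of 0.44, and that of high-fat minus normal in KO is 0.54 in place of 0.93.

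The largest differences were between the diets in KO. Means were higher on the high-fat diet for 38 of 38 members (48.1% of all genes), with log2 differences from 0.23 to 1.54 and a median of 0.93, against −0.006 over all genes. KO high-fat and KO normal arrays did not overlap for 30 members, all higher on the high-fat diet (6.32% of all genes), and 32 members were higher at an unadjusted p under 0.05 (3.57% of all genes). After adjustment limma called 0 members and 0 of 15237 genes (0%), with a smallest adjusted p of 0.391 for a member. The 38 members were higher on the high-fat diet without KO high-fat array 3 too, with a median of 0.54 and 30 members that did not overlap (14.8% of all genes), and the smallest adjusted p of a member was then 0.703. The members higher at an unadjusted p under 0.05 were then 14 (3.03% of all genes), and 19 with KO normal array 1 left out in its place (3.92% of all genes).

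Among the genes of chromosome structure, Mki67, which coats mitotic chromosomes, had log2 values of 9.05, 10.09 and 11.09 on KO high-fat arrays and 8.76, 9.15 and 9.09 on KO normal arrays. The groups overlapped, because KO high-fat array 1 lay below KO normal arrays 2 and 3. Top2a, the topoisomerase that untangles sister chromatids, had 7.56, 8.09 and 9.09 on KO high-fat arrays and 7.24, 7.38 and 7.50 on KO normal arrays, with no overlap.

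Among the cyclins and their kinase, Cdk1, the kinase that drives entry into mitosis, had 8.35, 9.22 and 10.01 on KO high-fat arrays and 7.67, 8.27 and 8.19 on KO normal arrays. Ccna2, cyclin A2, had 9.94, 10.08 and 11.21 on KO high-fat arrays and 9.56, 9.59 and 9.63 on KO normal arrays. Neither gene overlapped between the diets, though in Cdk1 KO high-fat array 1 lay just above the highest KO normal array. Foxm1, the transcription factor of the programme, had 6.93, 7.43 and 7.49 on KO high-fat arrays and 6.58, 6.89 and 7.01 on KO normal arrays, and overlapped. The 4 mitotic kinases had a median difference of 0.57, the second lowest of the role groups after the single gene of nucleotide supply, and Aurka had 8.20, 8.31 and 8.37 on KO high-fat arrays and 7.80, 8.11 and 8.03 on KO normal arrays.

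The 8 checkpoint, kinetochore and centromere genes had a median difference of 1.07 between the diets in KO, and 8 of 8 did not overlap. Ttk, the checkpoint kinase, had 6.63, 6.98 and 8.09 on KO high-fat arrays and 5.74, 6.08 and 5.66 on KO normal arrays, a difference of 1.40 (SE 0.33, limma adjusted p = 0.391). Cenpf, a kinetochore and matrix protein, had 7.14, 7.62 and 8.74 on KO high-fat arrays and 6.74, 6.48 and 6.54 on KO normal arrays. Each high-fat array was above each normal array in both genes, and array 3 was over 1 above the next. The 3 genes of the chromosomal passenger complex, which corrects faulty attachments, had differences between 1.02 and 1.07. Cdca8, the borealin subunit, had 9.16, 9.39 and 10.16 on KO high-fat arrays and 8.34, 8.64 and 8.65 on KO normal arrays.

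Among spindle proteins, Tpx2 had the largest difference of all members between the diets in KO, 1.54 (SE 0.42, 2.91-fold, limma adjusted p = 0.452). Its values were 8.77, 9.25 and 10.64 on KO high-fat arrays and 7.95, 7.88 and 8.21 on KO normal arrays. Among cytokinesis genes, Prc1, which bundles the central spindle, had 9.97, 10.27 and 11.50 on KO high-fat arrays and 9.57, 9.63 and 9.68 on KO normal arrays. Of the ubiquitin ligase group, Cdc20, the activator of the anaphase-promoting complex, had 8.14, 8.59 and 9.39 on KO high-fat arrays and 6.98, 7.30 and 7.59 on KO normal arrays, a difference of 1.42 (SE 0.36, limma adjusted p = 0.409). Cdca3, which takes part in the degradation of WEE1, had 8.19, 8.75 and 9.46 on KO high-fat arrays and 7.56, 7.72 and 8.13 on KO normal arrays. None of these genes overlapped between the diets. The smallest adjusted p values were spread over the roles, and the 8 members that overlapped were Mki67, Foxm1, Plk1, Kif2c, Kif4, Racgap1, Espl1 and Rrm2.

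**Figure D3:**
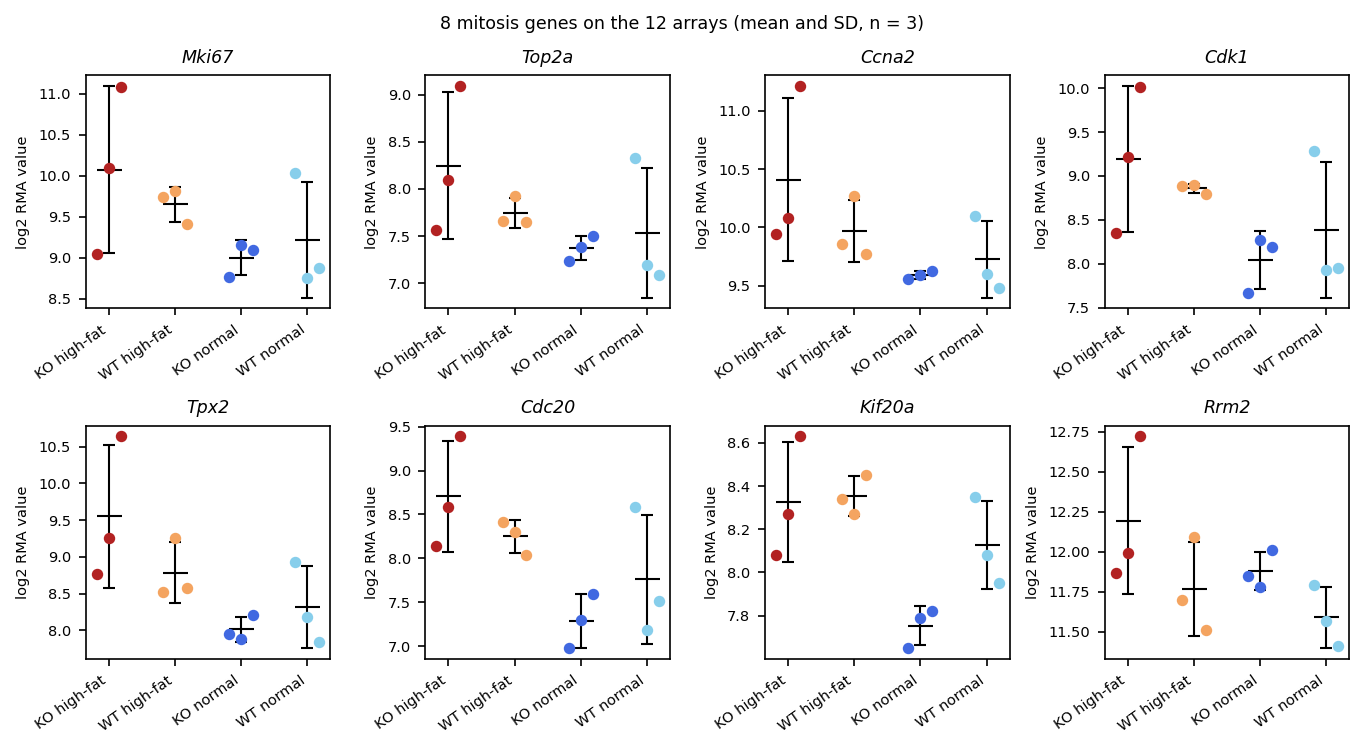
Points are the log2 RMA values of 8 mitosis genes on single arrays, bars the group mean ± SD (n = 3), in the order KO high-fat, WT high-fat, KO normal and WT normal. In each of the 8 panels 1 KO high-fat array is the highest point, and in Mki67, Top2a, Cdk1 and Cdc20 1 WT normal array lies more than 1 log2 unit above both others of its group.

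In WT, means were higher on the high-fat diet for 36 of 38 members (44.6% of all genes), but with a median log2 difference of 0.23, against −0.02 over all genes. WT high-fat and WT normal arrays overlapped for 38 of 38 members (5.63% of all genes did not and were higher). Limma called 0 members and 12 genes in all (0.0788%), with a smallest adjusted p of 0.56 for a member and 0 members at an unadjusted p under 0.05 (3.9% of all genes, higher). The largest differences were those of Kif2c, a microtubule depolymerase at 0.49, Cdc20 at 0.48 and Cdk1 at 0.47. Cdk1 had 8.88, 8.90 and 8.80 on WT high-fat arrays and 9.28, 7.93 and 7.95 on WT normal arrays. Cdc20 had 8.41, 8.30 and 8.04 on WT high-fat arrays and 8.58, 7.18 and 7.52 on WT normal arrays. In both, WT normal array 1 lay above the 3 high-fat arrays and both other normal arrays lay below them. Racgap1, the GTPase-activating protein of the central spindle, had 8.79, 8.72 and 8.70 on WT high-fat arrays and 9.34, 8.82 and 8.72 on WT normal arrays, and Espl1, separase, had 6.14, 6.28 and 6.12 on WT high-fat arrays and 6.68, 6.00 and 6.04 on WT normal arrays. Both had lower means on the high-fat diet, by 0.22 and 0.06. Leaving out WT normal array 1 gave a median of 0.51, with 37 members higher, and 32 members did not overlap (9.76% of all genes). Leaving out WT normal array 2 or 3 gave a median of 0.09, and leaving out WT high-fat array 2 gave 0.12.

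WT normal array 1 was also above the WT high-fat arrays in several other members. Mki67 had log2 values of 9.74, 9.81 and 9.41 on WT high-fat arrays and 10.03, 8.75 and 8.87 on WT normal arrays. Top2a had 7.66, 7.93 and 7.65 on WT high-fat arrays and 8.33, 7.19 and 7.09 on WT normal arrays. Cdca8 had 9.18, 9.14 and 9.00 on WT high-fat arrays and 9.45, 8.30 and 8.56 on WT normal arrays. In these 3 genes WT normal array 1 was above every WT high-fat array, while both other normal arrays were below. Aurka had 8.32, 8.05 and 8.14 on WT high-fat arrays and 8.50, 7.88 and 7.90 on WT normal arrays. Cdca3 had 8.50, 8.56 and 8.36 on WT high-fat arrays and 8.86, 7.90 and 7.91 on WT normal arrays. Cenpf had 7.21, 7.67 and 7.15 on WT high-fat arrays and 7.70, 6.31 and 6.72 on WT normal arrays. These kinase, degradation and kinetochore genes again had WT normal array 1 on top and the other normal arrays at the bottom.

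WT high-fat array 2 passed WT normal array 1 in Prc1, Ccna2, Tpx2, Kif2c, Rrm2, Ect2, Kif11, Cenpa and Cenpe. Prc1 had 9.90, 10.41 and 9.63 on WT high-fat arrays and 10.28, 9.63 and 9.61 on WT normal arrays. Ccna2 had 9.86, 10.27 and 9.77 on WT high-fat arrays and 10.10, 9.60 and 9.48 on WT normal arrays. Tpx2 had 8.52, 9.26 and 8.57 on WT high-fat arrays and 8.93, 8.18 and 7.84 on WT normal arrays. Kif2c had 6.16, 6.58 and 6.41 on WT high-fat arrays and 6.31, 5.55 and 5.79 on WT normal arrays. Rrm2, with an interaction of 0.14, the smallest of the members, had 11.87, 11.99 and 12.72 on KO high-fat arrays and 11.70, 12.09 and 11.51 on WT high-fat arrays. Foxm1 had 7.27, 7.08 and 6.84 on WT high-fat arrays and 7.09, 6.79 and 6.91 on WT normal arrays, where WT high-fat array 1 was the highest.

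The test of whether the diet differences differed between the genotypes called 0 members and 0 genes (0%). The interaction, the diet difference in KO minus that in WT, was above 0 for 38 of 38 members (53.8% of all genes), with a median of 0.67, and 2 members had an unadjusted p under 0.05 (2.99% of all genes, higher). The smallest adjusted p of a member was 0.946. The median was 0.30 when KO high-fat array 3 was left out, 0.37 when WT normal array 1 was, and 1.03 when KO high-fat array 1 was. With KO high-fat array 3 and WT normal array 1 both left out it was 0.09, with 23 members above 0. The members' median difference between the diets was then 0.54 in KO and 0.51 in WT.

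Other probe sets of the same genes gave smaller median differences, mostly with the same sign. Some single ones were larger, as for Cenpe between the diets in KO, with 1.31 against 0.92 for the probe set used. Of 44 such probe sets, 28 were above the filter, from 19 genes, and 24 of the 28 were highest on KO high-fat array 3. Between the diets in KO, 26 of 28 had the sign of the probe set used, with a median difference of 0.44, against 0.90 for the probe sets used of the same genes. Between KO and WT on the high-fat diet it was 26 of 28, with medians of 0.21 and 0.46, and on the normal diet 19 of 28, with medians of −0.07 and −0.22.

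Other genes of the programme were read from a wider list. Of 80 further mitosis genes, 75 were tested, and limma called 0 in any comparison. Between the diets in KO, 61 of the 75 had higher means on the high-fat diet (48.1% of all genes), with a median of 0.40. The arrays did not overlap for 34 that were higher (6.32% of all genes) and 2 that were lower (6.71%), and 36 were higher at an unadjusted p under 0.05 (3.57%). Cenpl, a centromere protein, had 6.93, 7.01 and 7.14 on KO high-fat arrays and 6.64, 6.81 and 6.57 on KO normal arrays (limma adjusted p = 0.408). Dlgap5, a spindle-stabilising protein, had 6.18, 6.40 and 7.18 on KO high-fat arrays and 5.27, 5.83 and 5.79 on KO normal arrays (limma adjusted p = 0.452). The array level of the wider list was −0.04, 0.14 and 0.64 on KO high-fat arrays and −0.25, −0.16 and −0.18 on KO normal arrays. In WT the wider list differed little between the diets, with 40 of the 75 higher (44.6% of all genes) and a median of 0.01. Between the genotypes, Ncapd3 had the smallest p of the wider list. It was higher in KO by 0.54 on the high-fat diet (limma adjusted p = 0.142) and 0.51 on the normal diet (limma adjusted p = 0.0653). On the normal diet 59 of the 75 had lower means in KO (59.8% of all genes).

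The DNA replication genes, which act before mitosis, had a different order over the arrays: of 37 tested genes the level was highest on WT normal array 1 (0.46), ahead of KO high-fat array 3 (0.27). Only 2 replication genes passed the test. Mcm4, a subunit of the replicative helicase, rose by 0.84 in KO on the high-fat diet (limma adjusted p = 0.028) and by 0.57 on the normal diet (limma adjusted p = 0.0433), and Ccne2, cyclin E2, rose by 0.67 in KO on the normal diet (limma adjusted p = 0.0496). Without KO high-fat array 3 and WT normal array 1 together, limma called 0 genes in either comparison. The count on the normal diet also fell from 128 to 4 or 3 without WT normal array 2 or 3 alone. Mcm4 itself did not overlap. It had 10.39, 10.26 and 10.31 on KO normal arrays and 9.74, 9.77 and 9.73 on WT normal arrays. On the high-fat diet it had 10.04, 10.15 and 10.35 on KO arrays and 9.26, 9.54 and 9.21 on WT arrays. Of 16 genes of cell cycle exit, 0 were called; the CDK inhibitor gene Cdkn1a had 11.32, 11.10 and 10.75 on WT high-fat arrays and 10.47, 10.44 and 10.02 on WT normal arrays (limma adjusted p = 0.122).

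The CHR letters did not divide the members by these values. The 26 members with them had a median difference between the diets in KO of 0.93 on the log2 scale, and 7 measured members with a promoter but without them (Birc5, Cenpe, Melk, Nek2, Nuf2, Nusap1 and Rrm2) had 0.95. Outside the members, the letters were in 41 of 65 promoters of the wider mitosis list (63.1%) and 6 of 32 replication promoters (18.8%).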

How the data were processed

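RNA from 12 mouse samples was hybridised to 1 Affymetrix array each. The deposited values are log2 RMA signals, 1 per probe set and array; per the submitters' processing notes, the tools were RMA and Partek 6.6, with options not stated in the sources. RMA equalises the array distributions, which hides a shift shared by most genes, and values near the lower end understate differences.

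Of 45101 probe sets, 34945 carried 1 gene symbol and 932 several. Each of 18193 genes was read from its probe set with the highest mean. A gene had to exceed 5 on 3 or more arrays; 2956 did not, and 15237 were tested. The 12 arrays were fitted with limma 3.58.1 (R 4.3.3), using a coefficient for each group (8 residual degrees of freedom). Of 5 contrasts, each was tested two-sided with Benjamini-Hochberg adjustment over all genes at 0.05. The number of arrays limits the precision.

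The members and lists were chosen with earlier results of these data known. Values of single arrays are given for Mki67, Top2a, Cdk1, Foxm1 and the brightest member of each role group. They are also given for up to 3 members with the largest positive and negative differences per comparison. For some of these members only the arrays of the groups compared are printed. Of further lists, genes past the threshold and some of those with the smallest p are named. KO arrays with the same number deviated from their group means in the same direction (r = 0.29, 0.38 and 0.14 between the diets). Same-number KO and WT high-fat arrays had r = −0.05, −0.51 and −0.35, so values of this size do not show that the numbers pair the arrays. The KO arrays were also fitted with the number as a block, although its meaning is not in the labels. Alternatives covered scaling, array weights, filters, probe sets and leaving out each array. Figures were drawn with matplotlib 3.10.9.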

Additional observations from a re-analysis of the deposited data

How the results depend on the processing

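Limma called 0 of the members tested in each of the 5 comparisons under each alternative run. These were 37 members with the mean of probe sets, and Kif4 did not pass the filter at log2 6. The counts of all genes called and the members' medians moved. With array weights the median was 0.26 in place of 0.44 for KO against WT on the high-fat diet and 0.41 in place of 0.67 for the interaction, and 21 in place of 32 members had an unadjusted p under 0.05 for the diet in KO. Median centring gave −0.15 in place of −0.26 for KO against WT on the normal diet, and the mean of probe sets gave 0.15 in place of 0.23 for the diet in WT. For KO against WT on the high-fat diet, the 4 genes called were 8 with median centring, 7 with array weights and 0 with only the arrays of both groups compared, and 0 to 272 when 1 array was left out (272 without WT high-fat array 2); the median over the members then ran from 0.09 to 0.71. For KO against WT on the normal diet, the 128 genes called were 194 with median centring, 69 with the mean of probe sets, 1175 with array weights and 6 with only the arrays of both groups, and 2 to 223 when 1 array was left out, with a member median from −0.39 to 0.006, the last without WT normal array 1. For the diet in WT, the 12 genes called were 1 with only the arrays of both groups and 0 to 11 when 1 array was left out; this gave a member median of 0.09 to 0.51, and leaving out 1 array gave a member median of 0.54 to 1.23 for the diet in KO and 0.30 to 1.03 for the interaction. The run without KO high-fat array 3 and WT normal array 1 together was an alternative chosen after seeing the data. It called 0 genes in both genotype comparisons and for the diet in WT. The member median was then 0.006 for KO against WT on the normal diet, and the interaction median was 0.0927. For the diet in WT this run gave a member median of 0.51, against −0.01 over all genes, with 37 of 38 higher. For the diet in KO it gave 0.54, against 0.02 over all genes, with 38 of 38 higher. The cause was not tested. With the replicate number as a block, the genes called were 2 for KO against WT on the high-fat diet, 9 on the normal diet and 0 for the diet in WT; the member medians did not move. KO arrays alone with that replicate block gave 0 genes called, 34 members at an unadjusted p under 0.05 and a smallest adjusted p of 0.287 for a member. Array weights were lowest for KO high-fat array 3 (0.47) and WT high-fat array 2 (0.48). The number of arrays and the signal over background limit what can be called.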

Other observations

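Genes outside the lists that stood apart on KO high-fat array 3 were looked up after their values had been seen. On that array 17 of 15237 genes lay more than 1 log2 unit above the next highest array: 8 of the mitosis genes, 5 of the wider mitosis list and 4 others. The 4 others were Esco2, which acetylates cohesin, Cip2a, an inhibitor of protein phosphatase 2A, Prdm14 and Gas2l3, a cytoskeletal linker. Esco2 had 5.55, 5.74 and 7.85 on KO high-fat arrays and 5.65, 6.35 and 5.99 on WT high-fat arrays, and was highest on KO high-fat array 3. Hmmr, a spindle protein of the wider list, had 8.28, 8.99 and 10.35 on KO high-fat arrays and 8.27, 8.77 and 7.84 on WT high-fat arrays.

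At more than 0.5 above the next array the count was 98 genes on KO high-fat array 3, of which 29 were mitosis genes and 22 of the wider list. On WT normal array 1 it was 15. A gene counted there had to exceed KO high-fat array 3, the highest array for 35 of 38 members, which left little room for mitosis genes. Of the 15, 0 were mitosis genes, though 38 of 38 members exceeded both other arrays of that group, and 3 were replication genes. Of those replication genes, Chaf1b, a chromatin assembly subunit, had 6.74, 6.85 and 6.94 on KO normal arrays and 8.22, 7.52 and 7.33 on WT normal arrays. KO high-fat array 3 was also more than 0.5 below the next lowest array for 42 genes, of which 0 were mitosis genes. Among them, picked after their values had been seen, were the circadian genes Dbp, Nr1d1 and Tef. Genes with other roles, such as Spag6l, Serpina1b and Baiap3, were among them too. Dbp had 10.85, 10.43 and 9.57 on KO high-fat arrays and 10.42, 10.68 and 11.40 on WT high-fat arrays, and Nr1d1 had 9.11, 8.89 and 7.92 on KO high-fat arrays and 9.34, 8.90 and 10.03 on WT high-fat arrays. Times of day are not given in the labels, and a part of them in these values was not tested.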
